A study of Mus musculus with 52 samples.

Results

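Imprinted genes are transcribed mainly from the allele of one parent. The choice is written in the germ line as DNA methylation at differentially methylated regions (DMRs), which keeps the methylated copy silent while the other copy stays open, and in several loci the DMR lies at the promoter of a gene that is then expressed from the paternal allele. KDM2A and KDM2B bind non-methylated CpG islands through a ZF-CxxC domain. An imprinted promoter that lies in a DMR thus offers 1 methylated and 1 non-methylated copy of the same sequence to these proteins. The promoters of 54 imprinted genes were looked up by symbol among the 20630 promoters with sequence on an assembled chromosome. The lookup itself used no measured value, but the genes and their classes were chosen with earlier results of these data known. In all, 59 promoters of 51 genes were found, because 6 genes (Gnas, Grb10, Igf2, Mest, Meg3 and Ddc) have more than 1 promoter in the tables. Magel2 and Slc22a2 had no row. Ube3a was not matched by its RefSeq identifier, but a row spans its annotated start and is described apart from the 59.

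The assay was calibrated ATAC-seq, in which the Tn5 transposase cuts open chromatin and Drosophila cells added before the reaction set the scale of the mouse reads. The 26 libraries came from 4 mouse embryonic stem cell (mESC) lines, all of which carry a tamoxifen-inducible CreERT2, without treatment or after 96 h of 800 nM tamoxifen. In Kdm2a/b-JmjC cells tamoxifen deletes the JmjC domain of both proteins, which takes away the long forms and leaves the short forms made from downstream promoters, and in Kdm2a/b-CXXC cells the ZF-CxxC domain of both. In the Kdm2a-CXXC line, and likewise the Kdm2b-CXXC line, it deletes that domain of the protein named. There were 3 untreated and 3 tamoxifen libraries of each line, and 4 and 4 of Kdm2a/b-CXXC. The Kdm2a/b-JmjC cells were derived from targeted mice, the Kdm2a-CXXC line was made by genome editing in CreERT2 mESCs, and the Kdm2a/b-CXXC line was made by editing the Kdm2b-CXXC cells, so that the 4 lines differ in origin as well as in the floxed allele. Untreated cells of every line carry floxed, not deleted, alleles. The promoter intervals say nothing of whether the floxed exons were removed.

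Libraries held 1.49 to 3.03 M promoter reads, and the median promoter of a library had 58 to 108 reads. Promoters of the pluripotency list (Pou5f1, Nanog, Sox2, Klf4, Esrrb, Zfp42 and Tfcp2l1; 8 promoters, Dppa5a having no row) had a median of 71.8 reads per 1000000 promoter reads (RPM), against 5.85 RPM for 8 promoters of fibroblast genes, 15.5 RPM for 7 of trophoblast genes and 27.5 RPM for 9 of primitive endoderm genes. Promoters in CpG islands can be open without expression, so these values are of accessibility alone. The sums over each list in untreated cells were, for pluripotency genes, 633 to 696 RPM in Kdm2a-CXXC, 532 to 547 in Kdm2b-CXXC, 455 to 550 in Kdm2a/b-CXXC and 474 to 539 in Kdm2a/b-JmjC. For fibroblast genes they were 66.5 to 74.7, 73.8 to 83.3, 82.0 to 104 and 80.6 to 92.3 RPM in that order. Trophoblast sums were 124 to 141, 158 to 174, 159 to 187 and 130 to 164 RPM, and primitive endoderm sums 186 to 202, 215 to 230, 212 to 256 and 210 to 247 RPM. The sums of these 3 lists were thus lower in Kdm2a-CXXC than in Kdm2a/b-CXXC without overlap, and pluripotency sums were higher. Single pluripotency promoters did not all follow their sum. Tfcp2l1 had the widest gap, with means of 197 RPM in Kdm2a-CXXC and 80.7 RPM in Kdm2a/b-CXXC, and Sox2, Klf4 and Zfp42 were also higher in Kdm2a-CXXC. Nanog (48.8 against 65.5 RPM), Pou5f1 (40.2 against 42.0 RPM) and both Esrrb promoters were lower there.

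The promoters fall into 2 groups by what is known of their loci. In the first are 13 promoters of 12 paternally expressed genes with a promoter in a maternally methylated germline DMR (Snrpn, Peg3, Usp29, Peg10, Sgce, Mest, Plagl1, Nnat, Impact, Nap1l5, Zrsr1 and Mcts2). They make up 10 loci, since the Peg3 and Usp29 intervals overlap and share reads, as do those of Peg10 and Sgce. One of the 2 Mest promoters, NM_001252293, lies upstream of the one in the DMR and is counted with it by gene. The other 46 promoters are mostly of genes silenced from such a region at a distance, of host genes of imprinted retrogenes, and of loci that hold a paternal mark. They also hold the exon 1A and XL alpha s promoters of Gnas, a gene with promoters of several kinds, although both of these lie in maternally methylated germline DMRs as well. Counts with these 2 moved to the first group, chosen after the results were seen, are given beside the main ones. Of the 59 promoters, 37 (62.7%) were CpG-rich over the 400 bp interval, against 54.6% of all promoters with sequence. The hexamer TGCCGC, searched on both strands as TGCCGC or GCGGCA, is the motif that ZFP57 binds when methylated. It was found in 7 of the 13 germline DMR promoters and in 15 of the other 46, against 24.6% of all promoters of this length.

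The longest exon-free stretches upstream of the annotated start of 8 of these promoters, chosen because the differences between the lines described below turn on most of them and because they cover both kinds of locus, are given from the GRCm38.p6 (mm10) RefSeq genome, 5′ to 3′ on the strand of the gene. Capitals mark TGCCGC or its complement GCGGCA. The stretches between Sgce and Peg10 and between Usp29 and Peg3 are the spaces between divergent start sites.
Nnat, chr2:157559878-157560077, plus strand: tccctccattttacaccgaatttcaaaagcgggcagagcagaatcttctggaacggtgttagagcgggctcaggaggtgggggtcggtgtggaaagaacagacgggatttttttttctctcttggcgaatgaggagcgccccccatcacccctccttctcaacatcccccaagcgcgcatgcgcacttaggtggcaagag
Nap1l5, chr6:58907127-58907326, minus strand: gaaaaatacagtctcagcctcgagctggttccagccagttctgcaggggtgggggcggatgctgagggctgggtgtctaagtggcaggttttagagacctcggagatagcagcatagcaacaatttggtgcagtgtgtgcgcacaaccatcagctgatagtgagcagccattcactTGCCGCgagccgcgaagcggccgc
Snrpn, chr7:60005200-60005356, minus strand: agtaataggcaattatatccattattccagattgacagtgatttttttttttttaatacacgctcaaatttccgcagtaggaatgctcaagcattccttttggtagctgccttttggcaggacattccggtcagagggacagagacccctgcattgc
Mest NM_008590, chr6:30737850-30737994, plus strand: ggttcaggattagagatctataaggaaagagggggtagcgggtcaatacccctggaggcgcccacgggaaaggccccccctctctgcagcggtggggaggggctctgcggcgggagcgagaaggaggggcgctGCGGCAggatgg
Plagl1, chr10:13090588-13090831, plus strand: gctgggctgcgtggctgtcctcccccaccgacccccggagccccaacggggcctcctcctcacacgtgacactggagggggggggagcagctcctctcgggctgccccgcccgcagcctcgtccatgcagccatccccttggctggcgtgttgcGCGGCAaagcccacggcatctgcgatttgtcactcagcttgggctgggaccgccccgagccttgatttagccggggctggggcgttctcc
Between Sgce and Peg10, read towards Peg10, chr6:4747205-4747305, plus strand: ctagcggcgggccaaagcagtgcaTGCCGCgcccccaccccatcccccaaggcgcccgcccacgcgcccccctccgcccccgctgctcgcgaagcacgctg
Between Usp29 and Peg3, read towards Peg3, chr7:6730463-6730558, minus strand: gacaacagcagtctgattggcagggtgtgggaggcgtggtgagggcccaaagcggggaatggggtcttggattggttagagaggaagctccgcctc
H19, chr7:142578147-142578346, minus strand: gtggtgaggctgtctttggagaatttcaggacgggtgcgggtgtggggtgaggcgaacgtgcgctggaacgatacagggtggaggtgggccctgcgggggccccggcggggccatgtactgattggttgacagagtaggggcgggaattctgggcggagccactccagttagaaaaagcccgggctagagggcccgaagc
The hexamer stands in 4 of the 8 stretches. In the whole intervals the promoter of Mest NM_008590 held 4 copies, that of Nap1l5 3, that of Snrpn 2 and that of Nnat 1, counting those outside the stretches shown. The intervals of H19, Peg3 and Usp29 held none. The hexamer is a description of the sequence, not a measured binding site.

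Accessibility of the imprinted promoters in untreated cells spanned a wide range. Values are given as RPM after TMM scaling over all promoters, which sets aside the spike-in. Averaged over the 13 untreated libraries, the 59 promoters lay between 1.21 RPM and 147 RPM with a median of 39.3 RPM, and 29 of them lay above the median promoter of the genome (39.7 RPM over 20630 promoters with sequence). The most accessible was Tssc4, a gene of the Kcnq1 cluster, at 123 to 165 RPM over the untreated libraries with a median of 148. Commd1, the host gene of the retrogene Zrsr1, had 92.4, 114 and 140 RPM as its lowest, median and highest library. Mcts2, a retrogene inside the H13 gene, had 94.3, 111 and 140 RPM, and Inpp5f, which holds an imprinted internal transcript, had 96.4, 107 and 121 RPM. At the low end were both Meg3 promoters, Ins2, Trappc9 and one promoter of Gnas. The Ube3a row, at chr7:59228550-59228949, had 96.1, 117 and 153 RPM; Ube3a encodes a ubiquitin ligase that is imprinted in neurons.

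**Figure D1:**
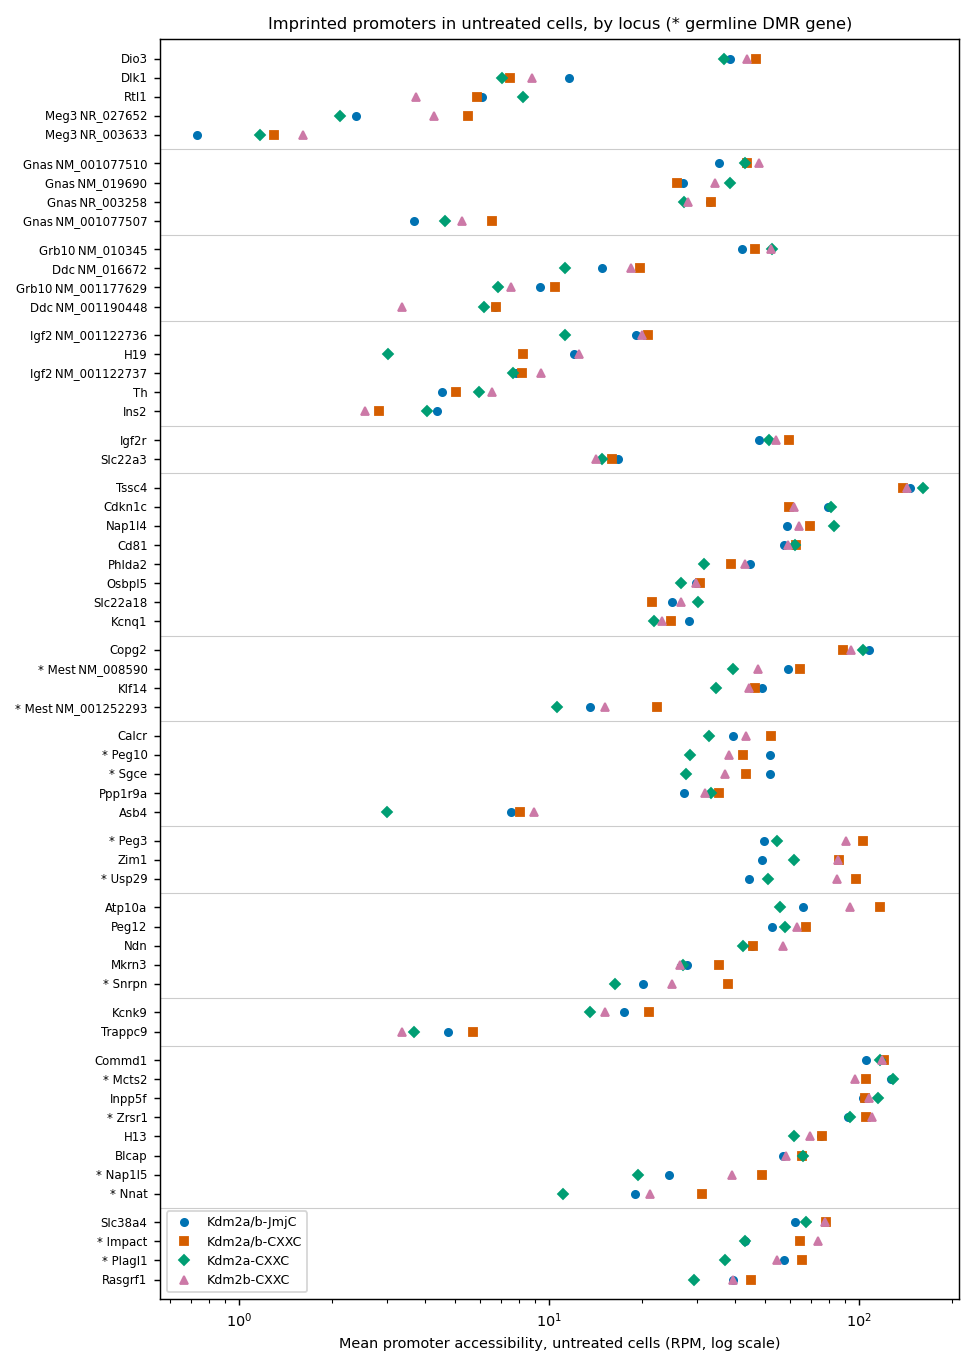
Mean accessibility of the 59 imprinted promoters in untreated cells of the 4 lines, in RPM on a log scale; each symbol is the mean of 3 or 4 libraries, promoters are grouped by locus, and an asterisk marks genes of a germline DMR. Levels run from about 1 RPM at Meg3 NR_003633 to 147 RPM on average at Tssc4, and Kdm2a-CXXC symbols lie furthest left at H19, Nnat, Asb4 and Plagl1.

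The members of single loci differed widely. In the Dlk1/Dio3 locus the promoter of Dio3, which encodes a thyroid hormone deiodinase, had 33.9 to 51.1 RPM over the untreated libraries. Dlk1, which encodes a transmembrane ligand related to Notch ligands, had 5.3 to 15.4 RPM with a median of 7.4. Meg3, the maternally expressed long non-coding RNA of the locus, had 0.4 to 7.1 RPM at NR_027652 and 0 to 3.3 RPM at NR_003633. In the Igf2/H19 locus the growth factor gene Igf2 had a median of 17.8 RPM at NM_001122736 and 8.4 RPM at NM_001122737, and H19, the maternally expressed non-coding RNA, 10.7 RPM. The Gnas locus held 4 promoters of different transcripts. Gs alpha (NM_001077510) had 33.6 to 54.4 RPM, the exon 1A transcript (NR_003258) 24.0 to 37.7 RPM, Nesp (NM_019690) 22.2 to 48.4 RPM and XL alpha s (NM_001077507) 2.1 to 10.1 RPM, so that the first 3 overlapped in range and XL alpha s lay below all of them. In the Igf2r locus the promoter of Igf2r, the receptor that takes up IGF2, had 41.3, 54.1 and 66.3 RPM as its lowest, median and highest untreated library, and Slc22a3, an organic cation transporter, 10.0, 15.3 and 21.6 RPM. Cdkn1c, a cyclin-dependent kinase inhibitor of the Kcnq1 cluster, had 48.8, 64.6 and 91.8 RPM.

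Levels were also taken by the allele of expression. The promoters of genes expressed from the paternal allele (27 promoters) had a median of 40.1 RPM and those expressed from the maternal allele (26 promoters) 41.0 RPM. The 37 CpG-rich imprinted promoters had a median of 43.7 RPM, below the 69.8 RPM of CpG-rich promoters in general, and the others had 15.7 RPM, above the 6.75 RPM of promoters in general that were not CpG-rich. A ratio of alleles cannot be read from these values, as reads were counted without regard to the allele.

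Untreated cells of the 4 lines were then compared, to see how far the imprinted promoters varied before any deletion. A promoter was called when limma's F test across the lines, adjusted over all promoters, gave a p under 0.05 and the highest and lowest line means differed over 2-fold. Of the 57 imprinted promoters tested, 9 (15.8%) were called, while over the 18887 promoters tested the background was 5.69%. At the adjusted p alone, 20 of 57 passed, against a background of 24.8%. The difference between the highest and lowest line had a median of 0.50 on the log2 scale over the imprinted promoters and 0.42 over all promoters.

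The wider spread was mostly at the germline DMR promoters. Of these 13, 12 had an adjusted p under 0.05 and 6 were called (92.3% and 46.2%), in 9 and 5 of their 10 loci. Without the upstream Mest promoter the counts were 11 and 5 of 12. With the 2 Gnas promoters they were 12 and 6 of 15, since neither exon 1A (0.30 ± 0.19, adjusted p = 0.51, limma) nor XL alpha s (0.62 ± 0.43, adjusted p = 0.665) passed. Of the other 44 imprinted promoters tested, 8 had an adjusted p under 0.05 and 3 were called (18.2% and 6.82%), or 8 and 3 of 42 without these Gnas promoters. The median difference between the highest and lowest line was 0.88 on the log2 scale (1.84-fold) for the germline DMR promoters and 0.44 (1.36-fold) for the others. The difference between the lines depends on level across the genome, so the counts were also taken among promoters of like level. Among promoters between 4 and 6 on the log2(RPM + 1) scale, 8 of 8 germline DMR promoters had an adjusted p under 0.05, against 2 of 23 other imprinted promoters and 27.0% of all 7098 promoters. With Gnas exon 1A moved, the counts were 8 of 9 and 2 of 22. Among promoters at 6 or more, 3 of 4 germline DMR promoters did, as did 4 of 10 other imprinted promoters and 32.7% of 6833. These are counts of promoters, not of loci. The 8 include Peg10 and Sgce, and the 4 include Peg3 and Usp29, pairs that share reads.

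**Figure D2:**
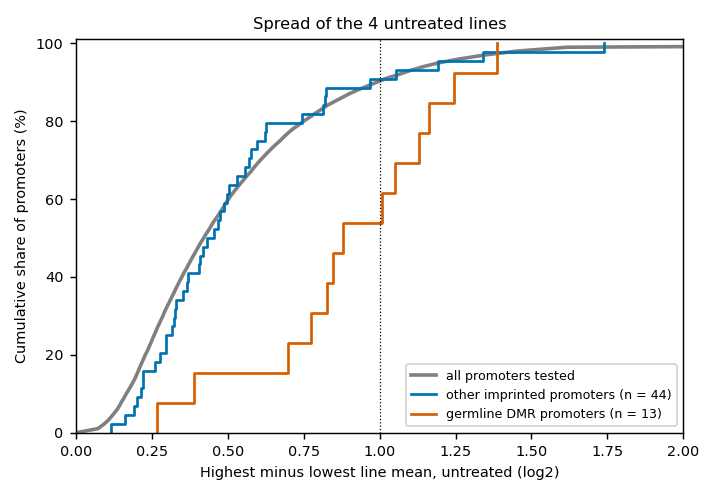
Cumulative share of promoters by the difference between the highest and the lowest line mean in untreated cells, in log2 units, for all promoters tested, the 13 germline DMR promoters and the 44 other imprinted promoters; the dotted line stands at 1 (2-fold). The curve of the other imprinted promoters runs close to that of all promoters, while the germline DMR promoters lie to its right, with a median of 0.88.

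The Kdm2a-CXXC line was the lowest at 8 of the 13 germline DMR promoters and the Kdm2a/b-JmjC line at 4. The Kdm2a/b-CXXC line was the highest at 8. Among all promoters between 4 and 6 on the log2 scale, Kdm2a-CXXC was the lowest line at 44.8%, and at 14.3% of those at 6 or more, so its place as the lowest line is shared with many promoters of middle level. Kdm2a/b-CXXC was the highest line at 29.7% and 14.4% of them, and Kdm2a-CXXC at 18.4% and 48.4%.

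Nnat, a neuronal proteolipid gene inside an intron of Blcap, had the widest spread of the germline DMR promoters (chr2:157559878-157560277). Its RPM was 13.02, 9.45 and 10.8 in the 3 untreated Kdm2a-CXXC libraries, 21.6, 20.2 and 15.3 in Kdm2a/b-JmjC, 27.2, 19.3 and 16.97 in Kdm2b-CXXC and 20.3, 33.8, 30.8 and 39.98 in Kdm2a/b-CXXC. All Kdm2a-CXXC libraries lay below every other untreated library. The difference between Kdm2a/b-CXXC and Kdm2a-CXXC was 1.39 ± 0.24 (log2 ± SE; 2.61-fold, adjusted p = 2.45e-05, limma). The promoter of its host gene Blcap differed little, with line means of 57 to 66 RPM, a range of 0.21 and an adjusted p of 0.472.

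Nap1l5, a retrogene inside an intron of Herc3 (chr6:58906927-58907326), gave a similar order. It had 19.1, 20.9 and 18.3 RPM in Kdm2a-CXXC, 16.0, 23.5 and 33.7 in Kdm2a/b-JmjC, 49.4, 27.4 and 40.1 in Kdm2b-CXXC and 47.9, 41.3, 68.8 and 36.7 in Kdm2a/b-CXXC. All Kdm2a/b-CXXC libraries lay above all those of Kdm2a-CXXC and Kdm2a/b-JmjC, and the difference between the highest and lowest line was 1.24 ± 0.20 (2.37-fold, adjusted p = 4.02e-07, limma).

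Snrpn, which encodes a spliceosomal protein (chr7:60004957-60005356), had 15.8, 16.2 and 17.02 RPM in Kdm2a-CXXC, 15.4, 19.7 and 25.5 in Kdm2a/b-JmjC, 19.8, 24.6 and 30.6 in Kdm2b-CXXC and 38.1, 36.3, 39.7 and 37.4 in Kdm2a/b-CXXC. The 4 Kdm2a/b-CXXC libraries lay above the 9 others. The difference was 1.16 ± 0.21 (2.24-fold, adjusted p = 2.39e-05, limma).

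At the paired start of Peg3, a zinc finger gene, and Usp29, a deubiquitinase gene, 2 lines were low and 2 high. Peg3 (chr7:6730220-6730619) had 54.8, 42.8 and 50.5 RPM in Kdm2a/b-JmjC, 56.7, 55.7 and 51.1 in Kdm2a-CXXC, 82.9, 95.1 and 95.2 in Kdm2b-CXXC and 95.2, 115, 108 and 93.7 in Kdm2a/b-CXXC. Kdm2b-CXXC and Kdm2a/b-CXXC, the line made from it, lay above both others without overlap. The difference between Kdm2a/b-CXXC and Kdm2a/b-JmjC was 1.05 ± 0.13 (2.07-fold, adjusted p = 8.28e-13, limma). Usp29 (chr7:6730383-6730782) had 46.8, 39.9 and 45.9, then 53.9, 52.3 and 46.1, then 81.7, 85.4 and 87.7, then 93.2, 103, 107 and 89.1 RPM in the same order of lines, with a difference of 1.13 ± 0.13 (2.19-fold, adjusted p = 1.88e-13). The maternally expressed neighbour Zim1, also a zinc finger gene, lay in the same order, at 44.4, 47.6 and 54.6, 72.1, 51.0 and 62.7, 98.8, 77.0 and 80.3, and 78.1, 82.0, 91.3 and 94.4 RPM. Its difference of 0.81 ± 0.13 (1.76-fold, adjusted p = 3.69e-07) stayed under 2-fold.

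The other germline DMR promoters differed by less. Plagl1, a zinc finger transcription factor gene (chr10:13090588-13090987), had 27.4, 37.5 and 46.1 RPM in Kdm2a-CXXC, 65.9, 51.4 and 55.1 in Kdm2a/b-JmjC, 52.5, 58.4 and 52.6 in Kdm2b-CXXC and 53.2, 69.5, 69.4 and 69.5 in Kdm2a/b-CXXC. All Kdm2a-CXXC libraries lay below the 10 others, and the difference was 0.83 ± 0.15 (1.77-fold, adjusted p = 8.51e-05, limma). Mest, which encodes a predicted hydrolase, had at NM_008590 (chr6:30737850-30738249) 43.2, 37.8 and 36.9 RPM in Kdm2a-CXXC, 61.6, 52.4 and 63.2 in Kdm2a/b-JmjC, 39.7, 50.8 and 51.3 in Kdm2b-CXXC and 55.8, 65.7, 72.3 and 64.2 in Kdm2a/b-CXXC, a difference of 0.70 ± 0.15 (1.62-fold, adjusted p = 0.00046). Its upstream promoter was called at a lower level, with line means of 10.6 RPM in Kdm2a-CXXC and 22.3 RPM in Kdm2a/b-CXXC and a difference of 1.01 ± 0.27 (adjusted p = 0.0127). Peg10, a gene derived from a retrotransposon, had 34.4, 26.3 and 24.9 RPM in Kdm2a-CXXC, 33.9, 45.1 and 35.2 in Kdm2b-CXXC, 36.8, 48.8, 45.0 and 38.0 in Kdm2a/b-CXXC and 49.9, 50.5 and 54.6 in Kdm2a/b-JmjC. Here Kdm2a/b-JmjC was the highest line, and the difference was 0.85 ± 0.18 (1.80-fold, adjusted p = 0.00142, limma). Impact, a translational regulator gene whose interval stands 328 bp from the annotated start, differed by 0.77 ± 0.16 (1.71-fold, adjusted p = 4.84e-06). The retrogenes Mcts2 and Zrsr1 were the flattest of the group, at 0.39 ± 0.11 and 0.27 ± 0.12 with adjusted p-values of 0.00419 and 0.17, the former being highest in Kdm2a-CXXC.

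Outside the germline DMR promoters H19, Asb4 and Atp10a were called. H19 (chr7:142577947-142578346) had 3.25, 3.37 and 2.49 RPM in Kdm2a-CXXC, 12.9, 11.5 and 11.7 in Kdm2a/b-JmjC, 13.2, 14.5 and 9.93 in Kdm2b-CXXC and 1.31, 13.1, 10.7 and 7.87 in Kdm2a/b-CXXC. The Kdm2a-CXXC libraries lay below all others but 1 Kdm2a/b-CXXC library, and the difference from Kdm2b-CXXC was 1.74 ± 0.40 (3.34-fold, adjusted p = 0.000609, limma). Asb4, an ankyrin repeat gene near Peg10, was low throughout, with 1.86, 3.04 and 4.15 RPM in Kdm2a-CXXC, below 10.51, 7.66 and 8.69 for Kdm2b-CXXC, a difference of 1.34 ± 0.40 (adjusted p = 0.0168). Atp10a, a phospholipid flippase gene (chr7:58658002-58658401), had 57.7, 60.7 and 49.0 RPM in Kdm2a-CXXC, 64.1, 62.9 and 71.9 in Kdm2a/b-JmjC, 87.6, 86.6 and 108 in Kdm2b-CXXC and 121, 105, 126 and 115 in Kdm2a/b-CXXC. Its difference was 1.05 ± 0.12 (2.08-fold, adjusted p = 3.26e-12, limma), and Kdm2b-CXXC and Kdm2a/b-CXXC again lay above both others without overlap.

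Of the remaining genes with values given, Igf2 NM_001122736 had 12.6, 9.79 and 11.6 RPM in Kdm2a-CXXC against 15.6 to 28.6 RPM in the 10 other libraries, a difference of 0.82 ± 0.25 (adjusted p = 0.0328) that stayed under 2-fold. Cdkn1c was higher in Kdm2a-CXXC (86.9, 67.8 and 88.4 RPM) than in Kdm2a/b-CXXC (57.8, 60.7, 64.6 and 55.1 RPM), by 0.43 ± 0.14 (adjusted p = 0.012, limma). Igf2r (0.32 ± 0.15, adjusted p = 0.345), Dlk1 (0.58 ± 0.36, adjusted p = 0.512), Igf2 NM_001122737 (0.26 ± 0.38, adjusted p = 0.939) and Meg3 NR_027652 (1.19 ± 0.50, adjusted p = 0.199) did not pass. Meg3 NR_003633 and Ins2 were left out by the filter on low reads. The host genes Blcap, Commd1, H13 and Inpp5f differed by 0.16 to 0.30 on the log2 scale, none with an adjusted p under 0.05. Copg2, the neighbour of Mest, differed by 0.28 (adjusted p = 0.157), and by 0.46 (adjusted p = 0.0021, limma) with each line centred on its chromosome medians.

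**Figure D3:**
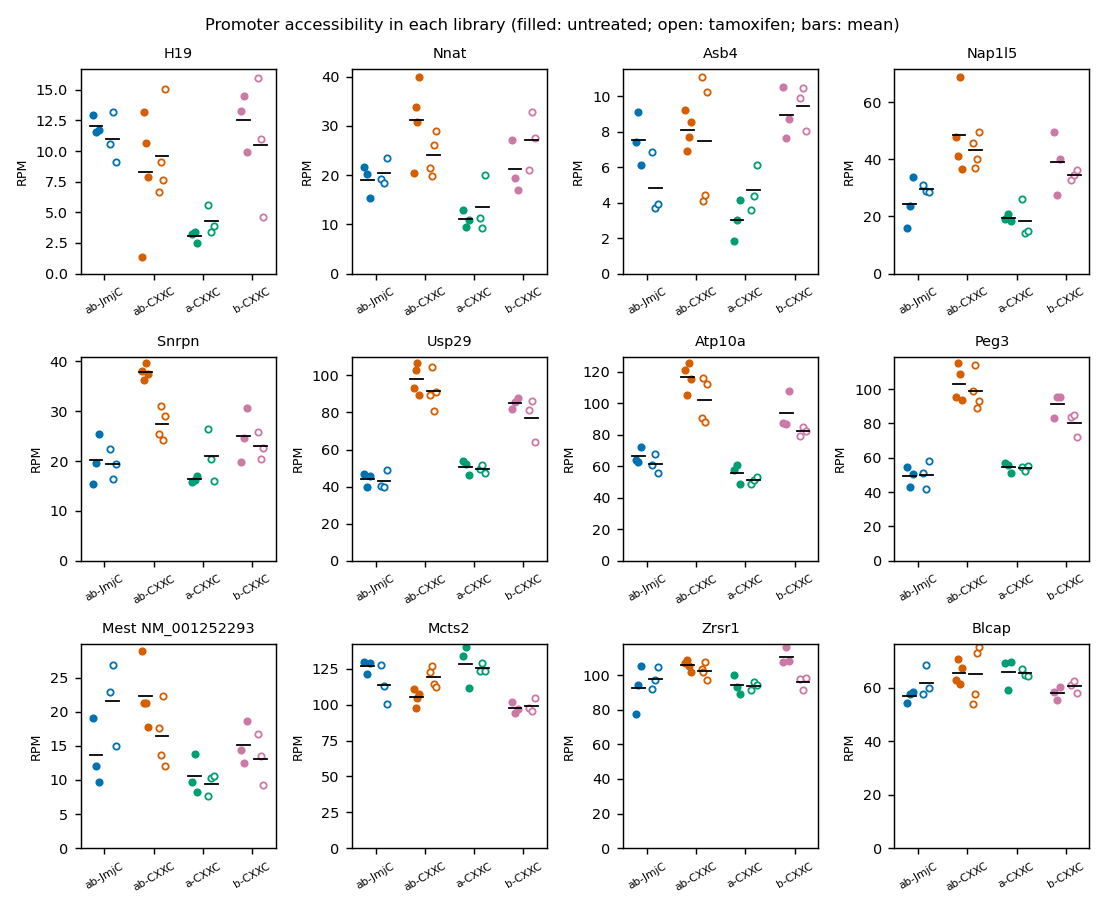
Accessibility in RPM in each library of the 4 lines (ab-JmjC, Kdm2a/b-JmjC; ab-CXXC, Kdm2a/b-CXXC; a-CXXC, Kdm2a-CXXC; b-CXXC, Kdm2b-CXXC) for the 9 promoters called between the untreated lines and for Mcts2, Zrsr1 and Blcap. Filled points are untreated and open points tamoxifen libraries, and bars are means. Kdm2a-CXXC or Kdm2a/b-JmjC lies lowest in the first 9 panels, and the last 3 panels are nearly flat.

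Tamoxifen libraries of the same lines are separate libraries and were compared in the same way. They come from cells after 96 h of tamoxifen, so differences between lines there may also hold effects of the deletions. Of the 9 promoters called in untreated cells, 8 had the same lowest line, 6 the same highest line and 4 were called again (Nap1l5, Nnat, Usp29 and the upstream Mest promoter). The background of calls in the tamoxifen libraries was 5.03%. How often called promoters in general kept their lowest or highest line was not counted, so the kept lines cannot be read as particular to imprinted promoters. Meanwhile Asb4 and H19 differed by 0.90 and 1.18 with adjusted p-values of 0.268 and 0.0519. Peg3 and Atp10a differed by 0.97 in both cases, just under 2-fold. At Snrpn the difference was 0.48 (adjusted p = 0.323), with 25.4, 31.0, 24.2 and 29.0 RPM in Kdm2a/b-CXXC against 38.1, 36.3, 39.7 and 37.4 in its untreated libraries. Of the 13 germline DMR promoters, 8 had an adjusted p under 0.05 (limma) across the tamoxifen libraries, in 6 of their 10 loci, against 22.2% of all promoters tested. The difference between lines also depended on the chromosome. Chromosomes 6 and 7, which hold most of the called promoters, had median shifts of 0.10 and 0.08 (log2) in Kdm2a/b-CXXC and of -0.07 and -0.06 in Kdm2a-CXXC. With each line centred on the chromosome median, 11 of the 13 germline DMR promoters, in 9 of 10 loci, had an adjusted p under 0.05 (limma). The share of all promoters was 17.7%. In this setting 5 imprinted promoters were called (H19, Nnat, Nap1l5, Asb4 and Snrpn) beside a background of 4.43%. With a pseudocount of 8 in place of 1, 3 imprinted promoters were called beside 1.64%, and after quantile normalization 7 beside 4.68%. The lines' origin, clone, floxed allele and any difference between experiments or in library quality cannot be told apart in this comparison.

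Genes that keep or read imprints were compared from a list of 12, of which Dppa3 and Setdb1 had no row. Of 11 promoters tested, 1 was called between the untreated lines, too few to set against the 5.69% of all promoters. This was Zfp57, the zinc finger gene whose product binds methylated imprinting control regions, with means of 15.3 RPM in Kdm2a-CXXC, 9.20 in Kdm2b-CXXC, 8.36 for Kdm2a/b-JmjC and 4.91 for Kdm2a/b-CXXC, a difference of 1.51 (adjusted p = 0.00348, limma). Ctcf, which encodes the insulator protein that binds the H19 control region, was higher in Kdm2a/b-JmjC by 0.50 (adjusted p = 0.000573, limma), at means of 148 RPM against 105 to 114 RPM. Atrx, a chromatin remodeller gene, was also highest in that line (0.46, adjusted p = 0.0313, limma), and the 8 other promoters, Trim28, Dnmt1, Uhrf1 and Zfp445 among them, did not pass. Chromosomes 8 and X, which hold Ctcf and Atrx, had median shifts of 0.27 and 0.19 (log2) in Kdm2a/b-JmjC. The values of this list were not centred on chromosome medians, so these differences cannot be read as particular to the 2 genes. Of 19 promoters tested from a list of further imprinted genes, 2 were called, beside the same 5.69%, and 7 had an adjusted p under 0.05, beside 24.8%. The promoters of this list were not sorted by germline DMR and enter none of the counts of that class. Peg13, a non-coding RNA, had means of 13.6 RPM in Kdm2a/b-JmjC and 24.0 to 33.3 RPM in the other lines (1.26, adjusted p = 5.35e-06, limma). Tfpi2, a protease inhibitor gene, was lowest in Kdm2a-CXXC (1.01, adjusted p = 0.0146). Airn, the non-coding RNA that silences Igf2r, was lowest in Kdm2a-CXXC (18.3 RPM) and highest in Kdm2a/b-CXXC (37.5 RPM; 0.99, adjusted p = 0.000633), and Sfmbt2, a Polycomb-related gene, was also highest in Kdm2a/b-CXXC (0.68, adjusted p = 0.00869). Other genes ran the other way. Both Zdbf2 promoters were highest in Kdm2a/b-JmjC. One was lowest in Kdm2a/b-CXXC (0.57, adjusted p = 1.73e-06) and the other in Kdm2b-CXXC (0.62, adjusted p = 0.000298). Jade1, a chromatin protein gene, was highest in Kdm2a-CXXC (0.53, adjusted p = 0.00204). Median shifts of chromosome 1, which holds Zdbf2, ran from -0.19 (log2, Kdm2a/b-CXXC) to 0.28 (Kdm2a/b-JmjC). Those of chromosome 3, which holds Jade1, were highest for Kdm2a-CXXC, at 0.22. The list of further imprinted genes was not centred on chromosome medians either. The order of lines at its genes thus cannot be read as particular to them. Kcnq1ot1, the RNA of the Kcnq1 cluster that corresponds to Airn, did not pass, with line means of 61.7 to 73.1 RPM (0.24, adjusted p = 0.452, limma). Of the marker lists, Nanog and Tfcp2l1 were called among 8 pluripotency promoters and Elf5 among 7 trophoblast promoters, lists too short to read against 5.69%, and none of 8 primitive endoderm or 6 fibroblast promoters was. Their part in the results at imprinted promoters was not tested.

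The main question of the design is whether the deletions changed accessibility. Here calibrated reads, the reads of a library divided by its spike-in size factor, were compared within each line, and a promoter was called at an adjusted p under 0.05 and a change over 1.4-fold. None of the imprinted promoters was called in any line by limma. In Kdm2a/b-JmjC 0 of 53 were called beside a background of 0.0757%, while 10 had an unadjusted p under 0.05, all lower after tamoxifen, beside 20.6%. Without either ZF-CxxC domain (Kdm2a/b-CXXC) 0 of 52 were called beside a background of 0%, and 3 had an unadjusted p under 0.05 beside 4.65%. For Kdm2a-CXXC the counts were 0 of 53 beside 0%, and 5 beside 8.39%. For Kdm2b-CXXC they were 0 of 57 beside 0%, and 0 beside 0.669%. DESeq2 called 0 in each of the 3 ZF-CxxC lines, and 0 in Kdm2a/b-JmjC, where it gave no adjusted p for 15649 of 17174 promoters. edgeR called 0 in the 3 ZF-CxxC lines and 1 in Kdm2a/b-JmjC, Copg2, beside a background of 0.658%.

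The median change of the imprinted promoters lay near that of all promoters in each line. It was -0.25 for Kdm2a/b-JmjC, where all promoters tested had -0.21, and 7 imprinted promoters were higher and 46 lower. For Kdm2a-CXXC it was -0.18, as for all promoters, with 12 higher and 41 lower. In Kdm2b-CXXC it was 0.08 against 0.10, with 35 higher and 22 lower, and for Kdm2a/b-CXXC 0.03 against 0.09, with 31 higher and 21 lower. With TMM scaling, which centres all promoters near 0, the splits became 20 and 33 for Kdm2a/b-JmjC, 26 and 27 for Kdm2a-CXXC, 25 and 32 for Kdm2b-CXXC and 20 and 32 for Kdm2a/b-CXXC. The sign of the small positive medians was set by single libraries. For Kdm2b-CXXC, leaving out tamoxifen replicate 1 gave -0.12 and leaving out untreated replicate 2 gave -0.09. For Kdm2a/b-CXXC, tamoxifen replicate 1 left out gave -0.05, and untreated replicate 1 or 4 left out gave -0.01. The germline DMR promoters, which set the lines apart before treatment, had medians of -0.23 for Kdm2a/b-JmjC, -0.18 for Kdm2a-CXXC, -0.00 for Kdm2b-CXXC and 0.03 for Kdm2a/b-CXXC. None of them was called.

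**Figure D4:**
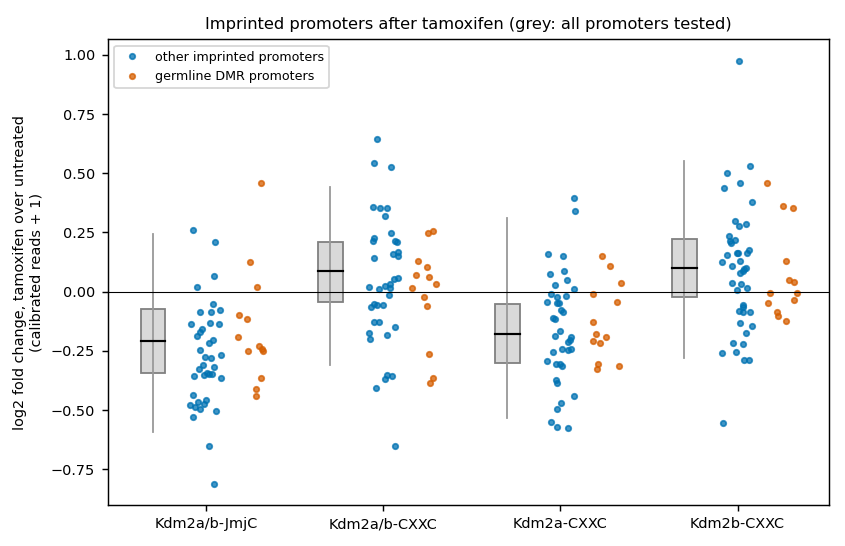
Log2 fold change of calibrated reads (+ 1), tamoxifen over untreated, of the imprinted promoters tested in each line, with germline DMR promoters apart; grey boxes, black bars and lines give the interquartile range, the median and the 5th to 95th percentile of all promoters tested. The points of each line scatter around the median of all promoters, at -0.21, 0.09, -0.18 and 0.10.

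In Kdm2a/b-JmjC the smallest p-values were at Copg2, a coat protein gene next to Mest, Inpp5f, a phosphatase gene, and Cdkn1c. Copg2 (chr6:30896595-30896994) had 210, 200 and 184 calibrated reads in untreated and 146, 136 and 129 in tamoxifen libraries, without overlap. The change was -0.53 ± 0.15 (log2 ± SE, adjusted p = 0.0631, limma), and -0.32 relative to all promoters with TMM scaling. Inpp5f went from 177, 219 and 173 to 167, 132 and 116, also without overlap (-0.46 ± 0.15, adjusted p = 0.0885), and Cdkn1c from 155, 173 and 112 to 102, 89.3 and 114 (-0.51 ± 0.17, adjusted p = 0.0973). Without 1 tamoxifen library (replicate 1) Copg2, Inpp5f, Mcts2 and Mkrn3 were called, at -0.57, -0.61, -0.51 and -0.93. In that setting 607 of all 17920 promoters tested were called, every one of them lower after tamoxifen. In this line 16 of 53 imprinted promoters had tamoxifen libraries that did not overlap the untreated ones, beside a background of 24.1%.

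In Kdm2a/b-CXXC the smallest p-values were at Grb10, Kcnk9 and Zim1. Grb10, an adaptor protein gene with an isoform from each allele, had at its main promoter NM_010345 84.9, 78.7, 67.5 and 53.2 calibrated reads in untreated and 160, 103, 103 and 86.7 in tamoxifen libraries. All treated libraries lay above the untreated ones, and the change was 0.64 ± 0.20 (adjusted p = 0.673, limma) or 0.56 with TMM scaling (adjusted p = 0.1). Kcnk9, a potassium channel gene whose interval stands 1420 bp from the annotated start, went from 34.6, 21.9, 48.7 and 24.2 to 30.4, 15.3, 21.5 and 13.6 (-0.65 ± 0.30, adjusted p = 0.996). Zim1 went from 118, 131, 144 and 139 to 128, 90.0, 102 and 84.3 (-0.41 ± 0.19, adjusted p = 0.996; -0.49 and adjusted p = 0.1 with TMM scaling). The treatments did not overlap at 2 imprinted promoters, Grb10 and Snrpn, beside a background of 2.4%.

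In Kdm2a-CXXC Copg2 again had the smallest p, with 211, 229 and 259 calibrated reads in untreated and 128, 168 and 218 in tamoxifen libraries (-0.47 ± 0.19, adjusted p = 0.581, limma). The Gs alpha promoter of Gnas went from 89.8, 101.3 and 98.3 to 58.4, 82.2 and 58.4 (-0.55 ± 0.22) and the exon 1A promoter from 69.7, 54.1 and 58.8 to 41.0, 40.6 and 39.3 (-0.57 ± 0.26), both with an adjusted p of 0.581 and without overlap. There were 9 such promoters of 53, beside a background of 14.5%. In Kdm2b-CXXC Trappc9, which encodes a trafficking complex subunit, went from 5.76, 9.91 and 5.27 to 25.1, 9.86 and 11.4, the potassium channel gene Kcnq1 from 73.8, 44.6 and 41.3 to 80.8, 76.9 and 66.9, and Ddc NM_016672, of an amino acid decarboxylase gene, from 61.1, 31.2 and 36.0 to 19.5, 33.5 and 31.8. Their changes of 0.98 ± 0.62, 0.53 ± 0.37 and -0.56 ± 0.41 all had an adjusted p of 1, and no imprinted promoter had ranges that did not overlap, beside a background of 2.58%.

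**Figure D5:**
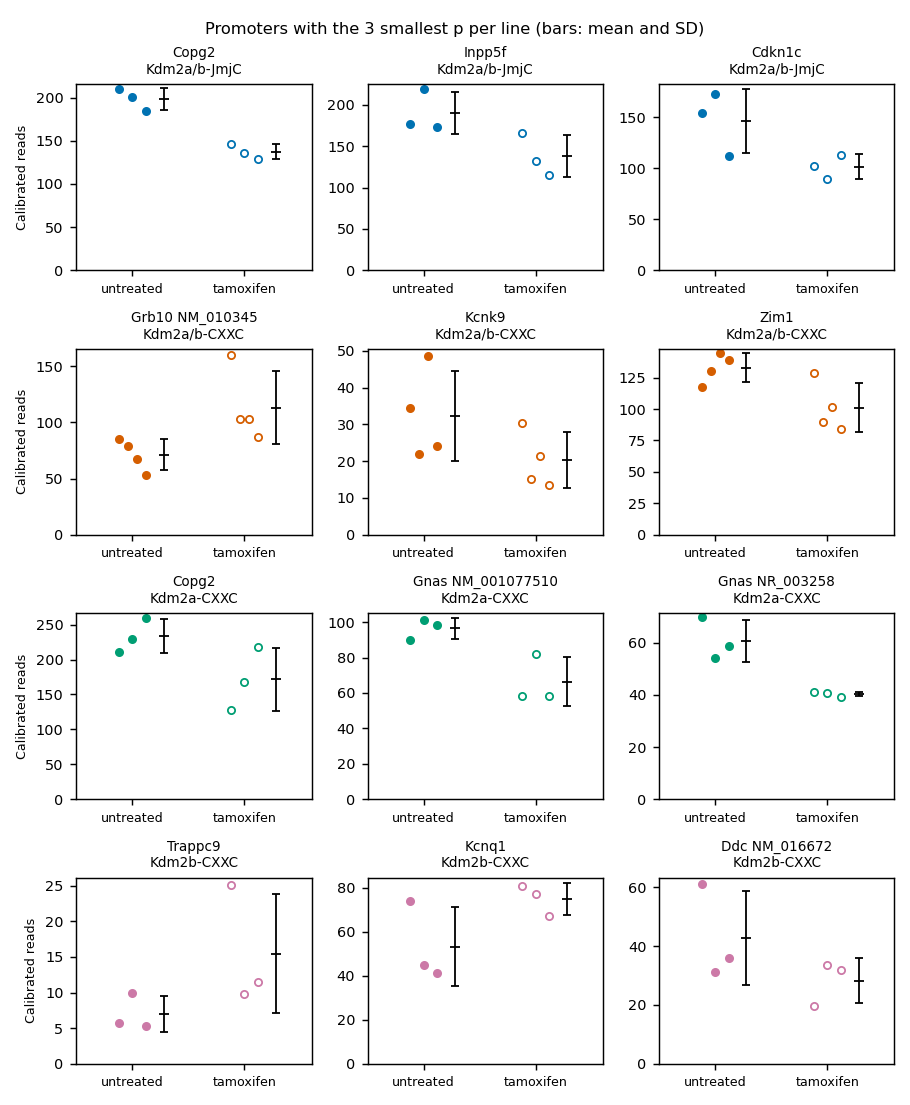
Calibrated reads in each untreated (filled) and tamoxifen (open) library for the 3 imprinted promoters with the smallest p in each line; black marks are the mean and SD of each group. Copg2 in Kdm2a/b-JmjC and Grb10 NM_010345 in Kdm2a/b-CXXC do not overlap between treatments, while the 3 promoters of Kdm2b-CXXC do.

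The remaining genes with values given moved little against their error. H19 changed by 0.53 ± 0.41 in Kdm2a/b-CXXC, -0.35 ± 0.37 in Kdm2a/b-JmjC and -0.29 ± 0.45 in Kdm2b-CXXC and was under the filter in Kdm2a-CXXC. Peg3 changed by -0.19 ± 0.19, 0.01 ± 0.18, -0.19 ± 0.21 and -0.08 ± 0.37 in Kdm2a/b-JmjC, then Kdm2a/b-CXXC, then Kdm2a-CXXC, then Kdm2b-CXXC, the order used for the genes that follow. Nnat changed by -0.10 ± 0.29, -0.26 ± 0.25, 0.04 ± 0.34 and 0.46 ± 0.38, and Snrpn by -0.24 ± 0.29, -0.39 ± 0.23, 0.15 ± 0.28 and -0.01 ± 0.38. Igf2r changed by -0.28 ± 0.20, -0.06 ± 0.20, 0.05 ± 0.21 and 0.13 ± 0.37, Plagl1 by -0.23 ± 0.18, 0.13 ± 0.20, -0.13 ± 0.23 and 0.36 ± 0.37, and Mest NM_008590 by -0.25 ± 0.18, 0.11 ± 0.20, -0.33 ± 0.22 and 0.35 ± 0.37. At Peg10 the change of -0.44 ± 0.20 in Kdm2a/b-JmjC had an adjusted p of 0.188, and it was 0.07 ± 0.22, -0.01 ± 0.24 and 0.05 ± 0.36 in the others. Both Igf2 promoters, Dlk1, and Meg3 NR_027652 where tested had adjusted p-values of at least 0.479 in every line.

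The effect of tamoxifen was not found to differ between the lines at any imprinted promoter. With an interaction of line and treatment over all libraries, 0 of 58 imprinted promoters passed an adjusted p under 0.05 by limma, beside a background of 0%, and 4 had an unadjusted p under 0.05 (Copg2, Grb10 NM_010345, Kcnq1 and Cdkn1c) beside 3.78% of all promoters. Of the genes that keep imprints none was called after tamoxifen in any line. An unadjusted p under 0.05 (limma) was found at 1 of 10 promoters in Kdm2a/b-JmjC, beside 20.6% of all promoters. The counts were 1 of 10 in Kdm2a/b-CXXC beside 4.65%, 1 of 10 in Kdm2a-CXXC beside 8.39%, and 0 of 11 in Kdm2b-CXXC beside 0.669%. Among further imprinted genes Gab1 alone was called, in Kdm2a/b-JmjC (-0.58, adjusted p = 0.0356). None of the pluripotency, primitive endoderm, trophoblast or fibroblast promoters was called in any line.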

How the data were processed

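Calibrated ATAC-seq was analysed in 26 libraries. The other 26 of the 52 samples are input genomic DNA, whose values were not used. The authors aligned reads with Bowtie2 to mm10 joined with dm6, and counted them over 400 bp promoter intervals without molecular identifiers. The values they deposited for a library are a signal: promoter reads over a DESeq2 size factor set by the spike-in. Whole reads were recovered from the steps of each column, with 100% of values whole within 0.01 reads and size factors of 0.718 to 1.41. The deposited means, log2 fold changes, standard errors, test statistics and p-values are the authors' own comparison and were not used.

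Tamoxifen was compared with untreated cells within each line by limma-trend (limma 3.58.1) of log2(calibrated reads + 1) following filterByExpr of edgeR 4.0.16 on the recovered reads. Fold changes on this scale understate those of low promoters. Untreated lines, each with its own table and calibration, were compared on log2(RPM + 1) after TMM scaling, with limma's F test. Adjusted p-values are Benjamini-Hochberg over all promoters and from limma unless another tool is named. An interval was CpG-rich at a GC share of 0.5 or more and an observed over expected CpG of 0.6 or more. Symbols and starts are from RefSeq on GRCm38.p6, which matched 99.1% of identifiers, and coordinates are 1-based. The authors describe the replicates as biological. No 2 replicates agreed within counting noise (variance at least 1.90 times that of counting).

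The members, their loci and classes and the lists of imprint maintenance genes, further imprinted genes and pluripotency, primitive endoderm, trophoblast and fibroblast markers were chosen with earlier results of these data known. Values per library were given for promoters called after tamoxifen, the 3 with the smallest p in each line, up to 8 with the widest spread among those called between lines, and 12 fixed genes (H19, Igf2, Meg3, Dlk1, Snrpn, Peg3, Peg10, Mest, Plagl1, Nnat, Igf2r and Cdkn1c); any other gene named was picked with its values in view. Simulated data with known changes were used to test the scripts. Alternatives were other scalings, pseudocounts of 0.5 and 8, no filter, edgeR and DESeq2 1.42.0 on recovered reads, a replicate block, each library left out and, for the lines, chromosome medians and the tamoxifen libraries. Quantile normalization and the move of 2 Gnas promoters between classes were added after seeing the data.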

Additional observations from a re-analysis of the deposited data

Results flagged for a closer look

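In 58 groups of 4 Kdm2a/b-CXXC libraries (29 promoters with values given, untreated and tamoxifen apart), 2 groups held a library far from the rest by Dixon's test at the 95% level, where chance flags about 1 in 20 groups. Both times it was tamoxifen replicate 1. Kcnq1 had 77.7 calibrated reads there and 36.9, 39.1 and 43.3 in the other libraries, and Nap1l5 had 93.5 there and 61.6, 61.95 and 65.8 in the others.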

How the results depend on the processing

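Between the untreated lines, 9 imprinted promoters were called, 7 to 9 with any library left out, 5 with lines centred on chromosome medians, 3 with a pseudocount of 8 and 4 in the tamoxifen libraries. Nap1l5 and Nnat were called under all 23 alternatives run, and Peg3 and the upstream Mest promoter under 18 and 17. After tamoxifen in Kdm2a/b-JmjC edgeR called 1 imprinted promoter (Copg2), and leaving out a library gave 0 to 4, the 4 without tamoxifen replicate 1. The median change of imprinted promoters in that line was -0.049 with TMM scaling and -0.047 with median-of-ratios scaling, and in Kdm2a-CXXC -0.0072 and -0.0026. Of 174 alternatives of the 12 changes after tamoxifen with values per library, 171 kept their direction and side of the threshold and 3 passed it, at Copg2 (-0.53 by edgeR, -0.57 without tamoxifen replicate 1) and Inpp5f (-0.61 without that library), all in Kdm2a/b-JmjC. The cause was not tested. Over all promoters 13 were called in Kdm2a/b-JmjC by limma, 113 by edgeR, 71 with a pseudocount of 8, 607 without tamoxifen replicate 1, and 0 with TMM scaling. In Kdm2a/b-CXXC 0 were called, and 17 with TMM scaling.

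Same-numbered untreated and tamoxifen libraries correlated at -0.009 to 0.073 in their deviations from group means. These correlations leave out shifts shared by all promoters of a library, so whether replicate numbers pair the samples was not settled. Calibrated totals of replicates 1 to 3 in Kdm2a-CXXC were 2.13, 2.30 and 2.51 M untreated and 1.76, 2.04 and 2.33 M after tamoxifen. In Kdm2b-CXXC they were 2.96, 1.75 and 2.12 M, then 3.19, 1.98 and 2.11 M, again in the same order. No such order was kept in Kdm2a/b-JmjC and Kdm2a/b-CXXC. In Kdm2a/b-JmjC 3 of 3 numbers correlated best with their own, a hint from the data alone. With the replicate number as a block, 0 imprinted promoters were called after tamoxifen in each line and 9 between the lines. Over all promoters the block moved the calls to 62 in Kdm2a/b-JmjC, 188 in Kdm2a-CXXC and 5 in Kdm2b-CXXC. In Kdm2b-CXXC it moved the imprinted promoters at an unadjusted p under 0.05 (limma) from 0 to 6 of 57. The share of all promoters there went from 0.669% to 9.96%. In Kdm2a-CXXC the same counts went from 5 to 7 of 53, and the shares from 8.39% to 22.0%. They stayed at 10 in Kdm2a/b-JmjC and at 3 in Kdm2a/b-CXXC. Depth limits the low promoters: both Meg3 promoters, Ins2, Trappc9 and H19 had few reads, so changes there were the least detectable at this depth.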
